A study of Mus musculus with 2 samples.

Results

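The genes described here are the mouse solute carriers, membrane proteins that move amino acids, sugars, nucleotides, metals and other ions across the cell surface and organelle membranes. Members were all genes whose symbol begins with Slc, a family number, the letter a and a further number, with at least 20 UMIs (unique molecular identifiers, 1 per captured transcript) over both replicates, and without Slc2a1 and Slc2a3. The rule gave 155 members of 325 such genes in the count tables, where 23679 genes are listed in all. The 170 other Slc genes lay below 20 UMIs, and 69 of them had no UMI in the kept cells. Just inside the threshold were Slc13a4 and Slc16a13 with 22 UMIs each, and just outside it were Slc11a1 with 19 and Slc16a7 with 18. The symbol rule also takes in genes that encode no transporter, such as Slc7a6os, Slc9a3r1, Slc9a3r2 and Slc4a1ap, and leaves out the Slc35 subfamilies b to f.

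Solute carriers work by binding their substrate on one side of a membrane and releasing it on the other, mostly driven by sodium, proton or substrate gradients. In lymphocytes the best known are amino acid carriers: CD98 (Slc3a2) pairs with light chains of the Slc7 family at the cell surface, Slc1a5 brings in glutamine and other neutral amino acids, and Slc38a1 and Slc38a2 take up small neutral amino acids with sodium. Monocarboxylate carriers of the Slc16 family move lactate, ketone bodies or aromatic amino acids, and the Slc25 family carries metabolites across the inner mitochondrial membrane.

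The cells were sorted as group 3 innate lymphoid cells (ILC3s), gut lymphocytes without antigen receptors, from the small intestinal lamina propria of male C57BL/6 mice aged 18 months. The 2 samples, replicate 1 and replicate 2, form 1 group in the labels, each a sample tag of its own BD Rhapsody library. No genotype or treatment is given, and the labels do not say whether the replicates came from separate or pooled animals, so every p-value measures only how evenly ratios held in these samples, a spread which may be technical. Filters of 300 or more genes and no more than 25% mitochondrial UMIs left 3337 and 3840 cells, with 6939790 and 6810214 UMIs in replicates 1 and 2. Counts were summed within 4 cell groups set by detected transcripts. T cells held at least 1 UMI of Cd3d, Cd3e or Cd3g (1149 and 1117 cells). Among the CD3-negative cells, Ncr1+ cells held Ncr1, the gene of the natural cytotoxicity receptor NKp46 (608 and 438 cells). Ccr6/Cd4+ cells lacked Ncr1 and held Ccr6 or Cd4, markers of lymphoid tissue inducer cells (128 and 79 cells), and the remaining cells held none of these (1452 and 2206 cells). Sums ran from 153949 UMIs in the Ccr6/Cd4+ cells of replicate 2 to 3671205 in the remaining cells of replicate 2, so values in Ccr6/Cd4+ cells are the least precise.

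Detection of a marker depends on depth. Median UMIs per cell were 1991 and 1769 in T cells, 2045 and 1860 in Ncr1+ cells, 1629 and 1670 in Ccr6/Cd4+ cells and 1725 and 1579 in remaining cells. A T cell receptor constant-region UMI was present in 82.1% and 75.6% of Ncr1+, 44.5% and 50.6% of Ccr6/Cd4+ and 66.7% and 69.2% of remaining cells, although these cells had no CD3 UMI. The receptor genes did not move together. Trbc1, a beta chain constant region, stood at 530 and 469 CPM in Ncr1+ cells against 361 and 319 in T cells. The other beta chain constant region, Trbc2, went the other way, with 486 and 473 in Ncr1+ cells against 1163 and 1067 in T cells. Trac, the alpha chain constant region, stood at 812 and 774 in T cells. In Ncr1+ cells it stood at 46.3 and 28.7, with a UMI in 9.05% and 4.79% of them. Ccr6/Cd4+ cells held Trac at 37.8 and 208, with a UMI in 5.47% and 16.5% of them. Remaining cells held it at 56.6 and 112, with a UMI in 6.89% and 10.4%. The T cell costimulatory receptor gene Cd28 stood at 14.2 and 6.89 in Ncr1+ and 267 and 184 in T cells. Its level was 21 and 65 in Ccr6/Cd4+ cells and 16.8 and 21.8 in remaining cells. Whether some CD3-negative cells are T cells with undetected CD3 was not tested. Kit, a surface receptor typical of ILC3s, had a UMI in 51.5% and 42% of Ncr1+, 47.7% and 45.6% of Ccr6/Cd4+ and 13.5% and 11.4% of T cells. The receptor gene Il7r was found in 84.8% to 94.3% of cells across the 8 sums. The cells labelled as ILC3s thus include CD3-positive cells. Summed levels of 5 fibroblast genes were 521 to 4589 CPM (UMIs of a gene per 1000000 UMIs of a sum) in the sums of replicate 1 and 26 to 118 in those of replicate 2. Immunoglobulin genes summed to 2333 to 7634 CPM in replicate 1 and 32.5 to 5569 in replicate 2, and 6 epithelial genes to at most 9.72 in any sum. Summed levels of 5 myeloid genes were 54.7 and 71.5 in Ccr6/Cd4+, 7.47 and 0 in Ncr1+, 105 and 4.73 in T and 162 and 44.1 in remaining cells. The myeloid marker Adgre1 had a UMI in 3.13% and 11.4% of Ccr6/Cd4+ cells. The replicates shared 10 cell indexes among cells of their own tag.

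Promoters of 4 members are shown because each of these genes was highest in 1 cell group in both replicates: Slc6a20a and Slc16a10 in Ncr1+ cells, Slc2a6 in Ccr6/Cd4+ cells and Slc16a1 in T cells. Each is the 250 bases before the transcription start from RefSeq on GRCm38.p6, 5′ to 3′ on the gene's strand. Capitals mark GCGTG on either strand, the core of the sites bound by the aryl hydrocarbon receptor, a transcription factor of gut ILC3s.
Slc6a20a (chr9:123678833-123679082, minus strand): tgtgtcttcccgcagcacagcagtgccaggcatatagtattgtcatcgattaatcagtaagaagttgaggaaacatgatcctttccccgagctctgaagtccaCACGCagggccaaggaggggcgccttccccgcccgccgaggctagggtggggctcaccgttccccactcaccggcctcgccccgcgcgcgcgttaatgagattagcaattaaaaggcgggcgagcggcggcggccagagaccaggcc
Slc16a10 (chr10:40142255-40142504, minus strand): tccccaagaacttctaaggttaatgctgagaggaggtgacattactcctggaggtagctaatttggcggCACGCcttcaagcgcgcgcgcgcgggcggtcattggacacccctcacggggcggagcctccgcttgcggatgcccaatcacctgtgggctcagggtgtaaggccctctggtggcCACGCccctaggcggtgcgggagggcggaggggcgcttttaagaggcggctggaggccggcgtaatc
Slc2a6 (chr2:27027999-27028248, minus strand): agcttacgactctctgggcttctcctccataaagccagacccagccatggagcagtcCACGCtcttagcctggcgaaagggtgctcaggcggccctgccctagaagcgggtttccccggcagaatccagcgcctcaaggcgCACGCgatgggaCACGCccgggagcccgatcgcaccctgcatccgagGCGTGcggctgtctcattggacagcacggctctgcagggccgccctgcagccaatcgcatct
Slc16a1 (chr3:104638414-104638663, plus strand): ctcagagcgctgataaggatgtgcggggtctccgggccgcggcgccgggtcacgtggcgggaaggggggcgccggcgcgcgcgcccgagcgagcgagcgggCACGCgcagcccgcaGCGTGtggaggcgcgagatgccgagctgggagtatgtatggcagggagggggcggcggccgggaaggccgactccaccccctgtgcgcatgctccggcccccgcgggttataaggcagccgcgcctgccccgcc
GCGTG occurred in 69 of 156 such promoters of the 114 members found in the table (44.2%) and in 28.2% of all 32851 promoters of this length. TGATGNAA, the core of ATF4 and C/EBP composite sites, was found in 3.21% of member promoters against 3.45% of all, and in none of the 4 windows shown. AGGTCA, the half-site of the ROR transcription factors, was found in 12.2% of member promoters against 14% of all. It too was in none of the 4 windows. A match is a stretch of letters and not a measured binding site. GCGTG holds a CpG, and the CpG content of the windows was not compared. The Slc6a20a window lies wholly inside the annotated chemokine receptor gene Ccr9, which runs on the opposite strand. According to GENCODE M21, 53 of its bases also fall in a Slc6a20a exon.

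The 155 genes together gave 107287 UMIs, which was 0.695% to 0.771% of all UMIs in the sums of replicate 1 and 0.799% to 0.854% in those of replicate 2. A kept cell held a median of 13 such UMIs in replicate 1 and 14 in replicate 2. Transcripts were concentrated in few members: the 12 with the most UMIs held 56.6% of the total, 21 members with at least 1000 UMIs held 68.5%, and 45 members with under 100 UMIs held 2.24%. The median member had 226 UMIs. First came the mitochondrial phosphate carrier Slc25a3 with 9700 UMIs, the glutamine transporter Slc38a1 with 8868 and the CD98 heavy chain gene Slc3a2 with 7404. They were followed by the monocarboxylate carrier gene Slc16a6 with 5676, Slc7a6os with 5042, Slc38a2 with 4812 and Slc1a5 with 4413. Levels of a gene are given in CPM.

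By family number, 26 genes classed with the amino acid carriers held 41.2% of the UMIs. Among them are Slc7a6os, which encodes no transporter, and Slc43a3, a purine nucleobase carrier, and the 24 others held 36.3%. Another 34 mitochondrial carriers held 24.4%, 24 metal ion carriers 8.32% and 10 carriers of monocarboxylates, fatty acids and choline 7.91%. The mitochondrial class had a summed level of 1812 to 1985 CPM in all 8 sums. The 24 summed to 2202 to 2630 CPM in replicate 1 and to 3026 to 3468 in replicate 2, so the replicates did not overlap in any group. In Ccr6/Cd4+ cells the monocarboxylate class reached 315 and 403 CPM, against 614 and 605 in Ncr1+ cells and 643 and 700 in T cells. Carriers of nucleosides, vitamins and organic ions, which here include Slc15a2 and Slc15a3, summed to 618 and 799 in Ccr6/Cd4+ cells and to 339 and 408 in T cells. Class sums follow their most abundant members and were not tested.

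**Figure D1:**
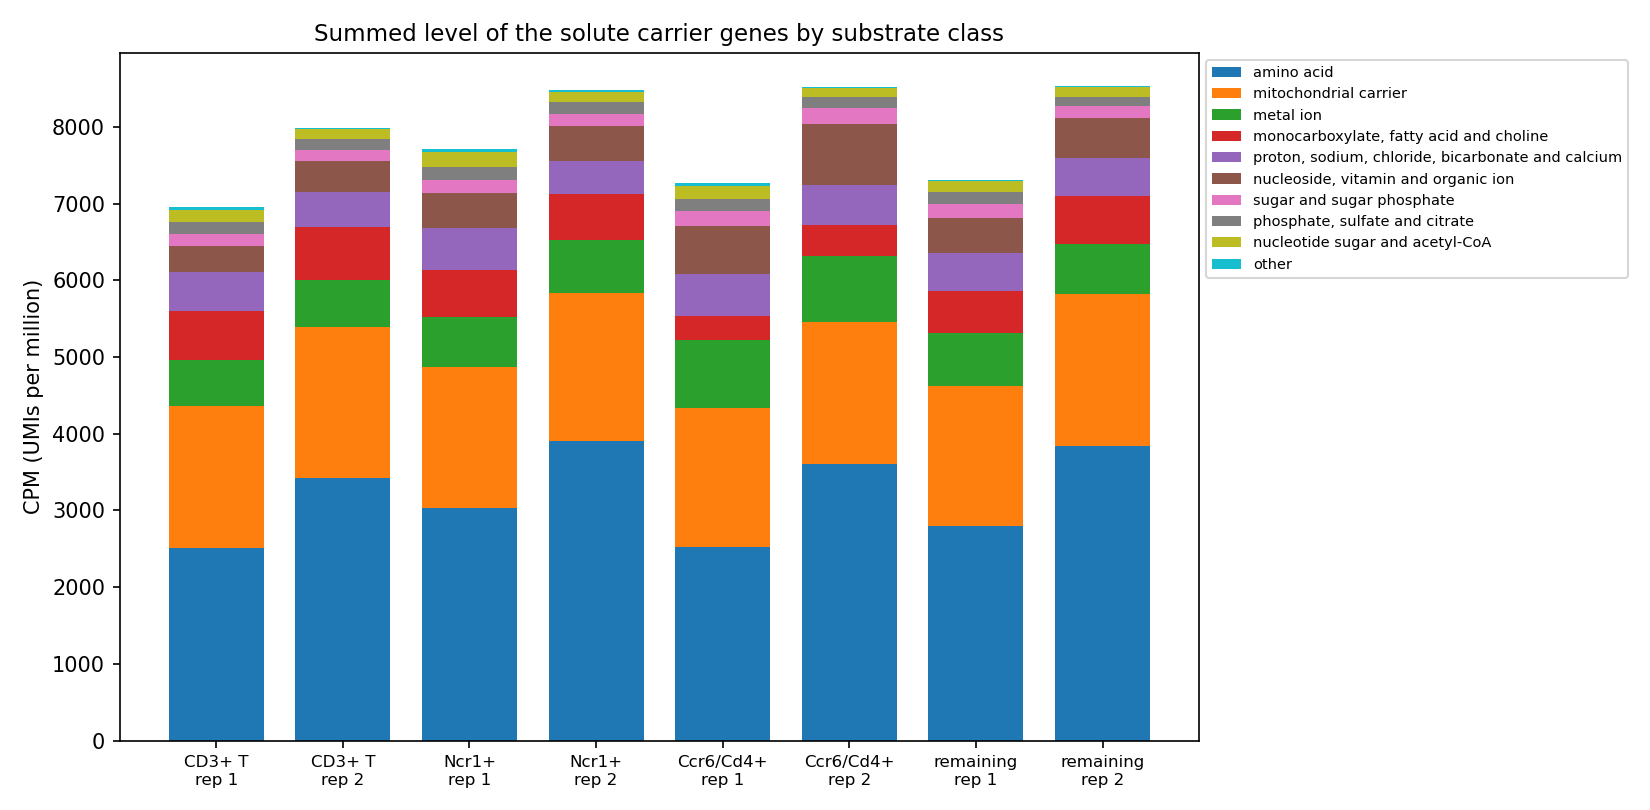
Stacked bars give the summed level (CPM, vertical axis) of the 155 genes by substrate class in each of the 8 sums, 4 cell groups by 2 replicates. The amino acid layer is thicker in replicate 2 (3429 to 3910) than in replicate 1 (2509 to 3027), and the mitochondrial layer stays between 1812 and 1985.

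Groups were compared in 4 pairs with edgeR's quasi-likelihood test on the 8 sums (n = 2 replicates per group), with the replicate as a block and p-values adjusted over 9637 genes. A gene that passed an adjusted p of 0.05 is called higher or lower. Of the 155 members, 133 had enough counts to be tested and 22 did not. The comparisons share sums, 3 of them the T cell sums, so their counts are not independent. Between T cells and Ncr1+ cells, 6 members were higher and 7 lower in T cells, 9.77% of those tested, where 11.6% of all tested genes were called, 6.06% higher and 5.55% lower. T cells against Ccr6/Cd4+ cells gave 6 higher and 9 lower, 11.3% of members, against 10% of all genes (5.46% higher and 4.57% lower). Ncr1+ against Ccr6/Cd4+ cells gave 4 higher and 7 lower, 8.27% against 4.63% of all genes (2.35% higher and 2.28% lower). T cells against the remaining cells gave 8 higher and 15 lower, 17.3% against 14% (6.51% higher and 7.46% lower). The median log2 ratio of the members was -0.06, 0.04, 0.11 and -0.05 in these comparisons, and that of all tested genes was 0.02, 0.10, 0.09 and -0.01. In all, 31 members were called in at least 1 comparison and 102 tested members in none. Slc15a3 and Slc2a6 were called in all 4. DESeq2 called 7, 12, 10 and 12 members in the same order, against 13, 15, 11 and 23 by edgeR. Without the replicate block edgeR called 1, 2, 1 and 1, in a fit where a difference between the replicates counts as spread. Those were Slc6a20a in each comparison with Ncr1+ or remaining cells and Slc15a3 and Slc2a6 in T against Ccr6/Cd4+ cells.

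**Figure D2:**
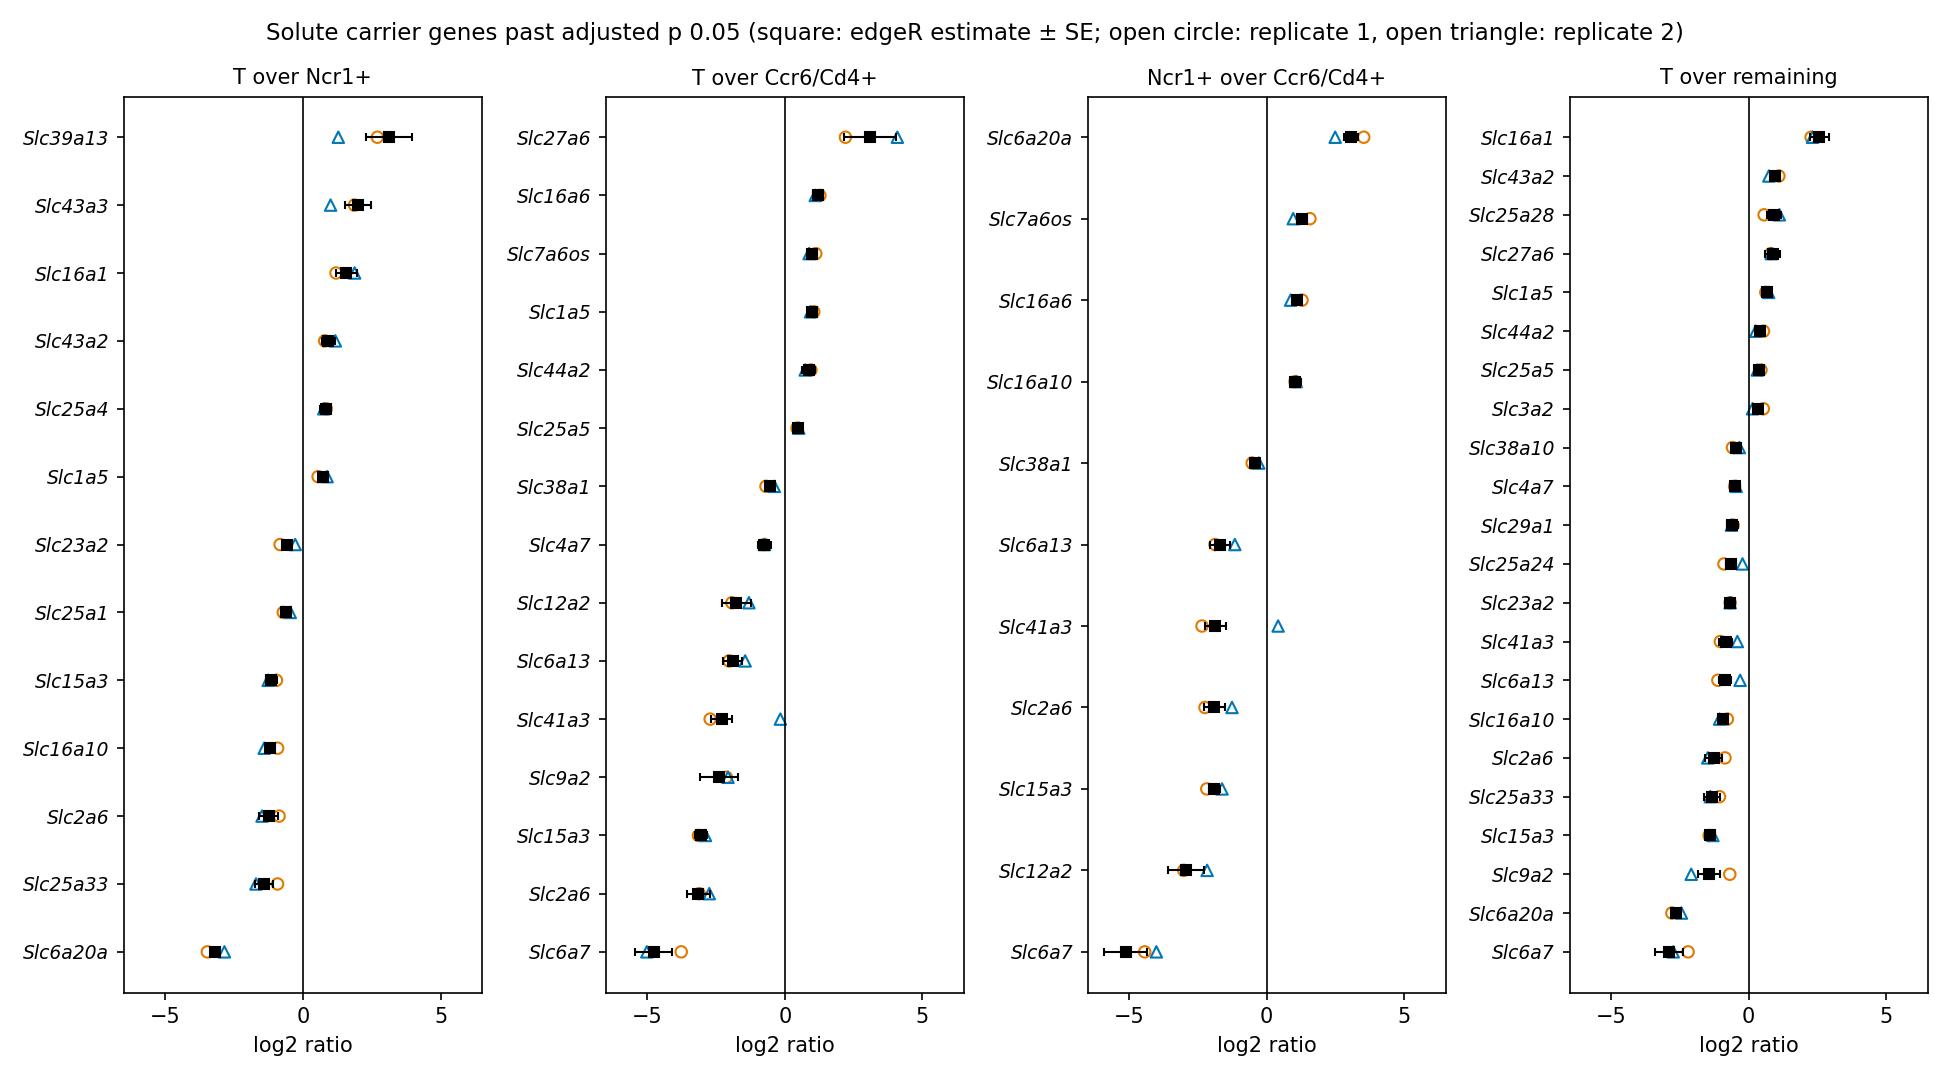
Each panel shows members called in 1 comparison (13, 15, 11 and 22 of 23), with the log2 ratio on the horizontal axis, squares for the edgeR estimate with bars of 1 SE, open circles for replicate 1 and open triangles for replicate 2. In the third panel, Slc41a3 is the member whose replicates lie on opposite sides of 0 (-2.35 and 0.42).

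Among amino acid carriers, Slc6a20a was highest in Ncr1+ cells. It encodes the sodium- and chloride-dependent carrier of proline and other imino acids and lies at chr9:123634770-123678885 on the minus strand (GRCm38). Its level was 531 and 438 CPM in Ncr1+ cells of replicates 1 and 2, 331 and 319 in remaining cells, 46.1 and 57.2 in T cells and 46.2 and 84.4 in Ccr6/Cd4+ cells. Both replicates of Ncr1+ cells exceeded every other sum, and T and Ccr6/Cd4+ cells overlapped at the low end. T cells lay 9.21-fold below Ncr1+ cells, a log2 ratio of -3.20 ± 0.15 (edgeR adjusted p = 2.45e-13). Ncr1+ cells lay 8.35-fold above Ccr6/Cd4+ cells, a log2 ratio of 3.06 ± 0.25 (edgeR adjusted p = 2.04e-08). T over remaining cells gave -2.64 ± 0.14 (edgeR adjusted p = 2.98e-12). Between T and Ccr6/Cd4+ cells the log2 ratio was -0.14 ± 0.33 (edgeR adjusted p = 0.859), with a 95% interval of -0.79 to 0.51. A Slc6a20a UMI was found in 47.7% and 38.4% of Ncr1+, 30.2% and 29.2% of remaining, 4.87% and 6.62% of T and 5.47% and 11.4% of Ccr6/Cd4+ cells. With every cell thinned to 1000 UMIs the shares were 34.6% and 27.2%, 22% and 22.4%, 2.51% and 4.32% and 4.20% and 6.76%, in the same order of groups, after leaving out 35, 16, 9 and 126 shallower T, Ncr1+, Ccr6/Cd4+ and remaining cells in replicate 1 and 53, 19, 5 and 236 in replicate 2.

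Slc6a20a overlaps its neighbour Ccr9, the receptor for the gut homing chemokine CCL25, by 447 bases on opposite strands, and whether counting used strand is not given in the sources used here. Ccr9 stood at 572 and 358 CPM in Ncr1+, 348 and 264 in remaining, 215 and 152 in T and 63.1 and 156 in Ccr6/Cd4+ cells. It too was lower in T than in Ncr1+ cells, with a log2 ratio of -1.30 ± 0.15 (edgeR adjusted p = 7.31e-07). Ccr9 was called higher in T than in Ccr6/Cd4+ cells, with a log2 ratio of 1.01 ± 0.28 (edgeR adjusted p = 0.0186), although replicate 2 was level, while Slc6a20a was not called there. Whether reads of one gene were counted for the other was not tested. The paralogue Slc6a20b, beside it on the chromosome, had 16 UMIs over both replicates and is no member.

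Slc16a10, which carries aromatic amino acids such as tryptophan and tyrosine, was also highest in Ncr1+ cells within each replicate. Levels were 143 and 525 CPM in Ncr1+, 129.9 and 399 in remaining, 71.5 and 273 in Ccr6/Cd4+ and 74.3 and 189 in T cells. Replicate 2 was higher than replicate 1 in every group, so the groups overlap across replicates and separate only within them. T over Ncr1+ cells gave a log2 ratio of -1.21 ± 0.13 (edgeR adjusted p = 2.87e-07), and single replicates gave -0.92 and -1.41. Ncr1+ over Ccr6/Cd4+ cells gave 1.05 ± 0.20 (edgeR adjusted p = 0.00156). Leaving out CD3-negative cells with a T cell receptor UMI brought the latter to 0.74 (edgeR adjusted p = 0.284). T over remaining cells gave -0.93 ± 0.12 (edgeR adjusted p = 4.72e-06), and T and Ccr6/Cd4+ cells differed by -0.16 ± 0.21 (edgeR adjusted p = 0.738).

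Of the genes classed with the amino acid carriers, 21 were tested. T over Ncr1+ cells gave 3 higher and 2 lower, 23.8% against 11.6% of all genes. T over Ccr6/Cd4+ cells gave 2 higher and 3 lower, 23.8% against 10%. Ncr1+ over Ccr6/Cd4+ cells gave 3 higher and 3 lower, 28.6% against 4.63%. T over remaining cells gave 3 higher and 5 lower, 38.1% against 14%. The same 3 genes were higher in Ccr6/Cd4+ cells than in both T and Ncr1+ cells. Slc6a7, the high-affinity proline transporter known from neurons, reached 58.9 and 39 CPM there, 18.6 and 6.26 in remaining, 1.49 and 1.15 in Ncr1+ and 3.05 and 0 in T cells. The 0 in T cells of replicate 2 allows a level of up to 1.42 CPM (3 UMIs of the sum, counting error only). These levels rest on 14 and 6 UMIs in Ccr6/Cd4+ cells and 2 and 1 in Ncr1+ cells. Pooled over replicates, Ccr6/Cd4+ cells held Slc6a7 at 37.6 times the level of Ncr1+ cells, with an exact 95% counting interval of 11.1 to 197. The fit gave Ncr1+ over Ccr6/Cd4+ cells a log2 ratio of -5.12 ± 0.78 (edgeR adjusted p = 1.15e-04) and T over Ccr6/Cd4+ cells -4.76 ± 0.67 (edgeR adjusted p = 1.87e-05). Without CD3-negative cells holding a T cell receptor UMI, the former gave -3.74 (edgeR adjusted p = 0.0878). So the pair of proline carriers ran in opposite directions between Ncr1+ and Ccr6/Cd4+ cells, Slc6a20a higher and Slc6a7 lower in Ncr1+ cells.

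Slc6a13, a carrier of GABA and taurine, stood at 122 and 52 CPM in Ccr6/Cd4+, 62.8 and 20.4 in remaining, 31.4 and 20.7 in Ncr1+ and 27.8 and 16.1 in T cells. Within each replicate Ccr6/Cd4+ cells were highest, while remaining cells of replicate 1 lay above Ccr6/Cd4+ cells of replicate 2. Ncr1+ over Ccr6/Cd4+ cells gave a log2 ratio of -1.71 ± 0.37 (edgeR adjusted p = 0.00476) and T over Ccr6/Cd4+ cells -1.89 ± 0.35 (edgeR adjusted p = 5.90e-04). The third was Slc38a1, with smaller ratios. It stood at 790.3 and 987 CPM in Ccr6/Cd4+, 533 and 738 in Ncr1+ and 471 and 664 in T cells. T over Ccr6/Cd4+ cells gave -0.54 ± 0.12 (edgeR adjusted p = 0.00309) and Ncr1+ over Ccr6/Cd4+ cells -0.41 ± 0.12 (edgeR adjusted p = 0.0486). The first was -0.37 (edgeR adjusted p = 0.216) without CD3-negative cells holding a T cell receptor UMI. The second of these calls was lost in 7 of the alternatives, among them cells thinned to 1000 UMIs, -0.34 (edgeR adjusted p = 0.220). Its close relative Slc38a2 was not called in any comparison, and T over Ccr6/Cd4+ cells gave -0.16 ± 0.15 (edgeR adjusted p = 0.594).

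In T cells, Slc1a5, the neutral amino acid exchanger that brings in glutamine, was higher than in each of the other groups. It stood at 335 and 522 CPM in T, 232 and 295 in Ncr1+, 168 and 312 in Ccr6/Cd4+ and 221 and 319 in remaining cells. Both T cell sums lay above all 6 others. The log2 ratio was 0.72 ± 0.12 (edgeR adjusted p = 1.08e-04) over Ncr1+, 0.99 ± 0.16 (edgeR adjusted p = 1.46e-04) over Ccr6/Cd4+ and 0.68 ± 0.11 (edgeR adjusted p = 6.39e-05) over remaining cells. Without CD3-negative cells holding a T cell receptor UMI, T over Ncr1+ cells gave 0.60 (edgeR adjusted p = 0.0662). Ncr1+ and Ccr6/Cd4+ cells differed by 0.28 ± 0.17 (edgeR adjusted p = 0.477), with a 95% interval of -0.06 to 0.62. Slc43a2, a uniporter of large neutral amino acids such as leucine, stood at 62.1 and 38.8 CPM in T, 35.9 and 17.2 in Ncr1+ and 28.8 and 23.2 in remaining cells. T cells lay 1.90-fold above Ncr1+ cells, a log2 ratio of 0.93 ± 0.23 (edgeR adjusted p = 0.00698), and the ratio over remaining cells was 0.96 ± 0.18 (edgeR adjusted p = 6.30e-04). With DESeq2 the T over Ncr1+ call was lost, 0.95 (DESeq2 adjusted p = 0.0710).

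Slc3a2, the CD98 heavy chain, was among the most abundant members in every group. Levels were 507 and 692 CPM in T, 407 and 643 in Ncr1+, 374 and 734 in Ccr6/Cd4+ and 355 and 635 in remaining cells, and replicate 2 was higher in each. Only T over remaining cells was called, 0.34 ± 0.11 (edgeR adjusted p = 0.0352), and DESeq2 gave 0.35 (DESeq2 adjusted p = 0.126). T over Ncr1+ cells, at 0.26 ± 0.11 (edgeR adjusted p = 0.165), was called without cells holding other cell types' markers, 0.30 (edgeR adjusted p = 0.0323). Fewer UMIs were counted for its light chains. Slc7a5, the leucine-carrying partner, had 75 UMIs in all and was not tested, with 5.72 and 12.3 CPM in T, 1.49 and 5.74 in Ncr1+, 4.20 and 0 in Ccr6/Cd4+ and 2.55 and 5.18 in remaining cells. The cystine carrier Slc7a11 had 39 UMIs and was not tested either. Slc7a6, another light chain, was tested and not called, with T over Ncr1+ cells at 0.11 ± 0.21 (edgeR adjusted p = 0.836).

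Slc7a6os, read from the strand opposite to Slc7a6 and encoding no transporter, was lower in Ccr6/Cd4+ cells, at 135 and 247 CPM against 282 and 399 in T and 391 and 441 in Ncr1+ cells. Ncr1+ over Ccr6/Cd4+ cells gave a log2 ratio of 1.28 ± 0.18 (edgeR adjusted p = 4.79e-05). Slc7a1, which takes up arginine and lysine, was not called between groups, with T over Ncr1+ cells at 0.07 ± 0.14 (edgeR adjusted p = 0.832) and a 95% interval of -0.20 to 0.34. The taurine carrier Slc6a6 stood at 107 and 99.8 CPM in T and 80.7 and 74.6 in Ncr1+ cells, 0.45 ± 0.15 (edgeR adjusted p = 0.0642), short of the threshold. Slc43a3, grouped here by its family but known as a purine nucleobase carrier, was called higher in T than in Ncr1+ cells at 1.99 ± 0.47 (edgeR adjusted p = 0.00508), but not with DESeq2, 1.98 (DESeq2 adjusted p = 0.0897). Its levels were 24.8 and 3.31 CPM in T, 5.98 and 1.15 in Ncr1+ and 32.8 and 4.90 in remaining cells, high in replicate 1 where fibroblast genes summed to 3644 CPM in T cells and 3199 in Ncr1+ cells against 118 and 35.6 in replicate 2. Without cells holding at least 3 UMIs of other cell types' markers, T cells of replicate 1 kept 5 of their 65 Slc43a3 UMIs, and the gene was no longer tested. Slc38a10 was lower in T than in remaining cells at -0.47 ± 0.14 (edgeR adjusted p = 0.0280). It is named after its values were seen.

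**Figure D3:**
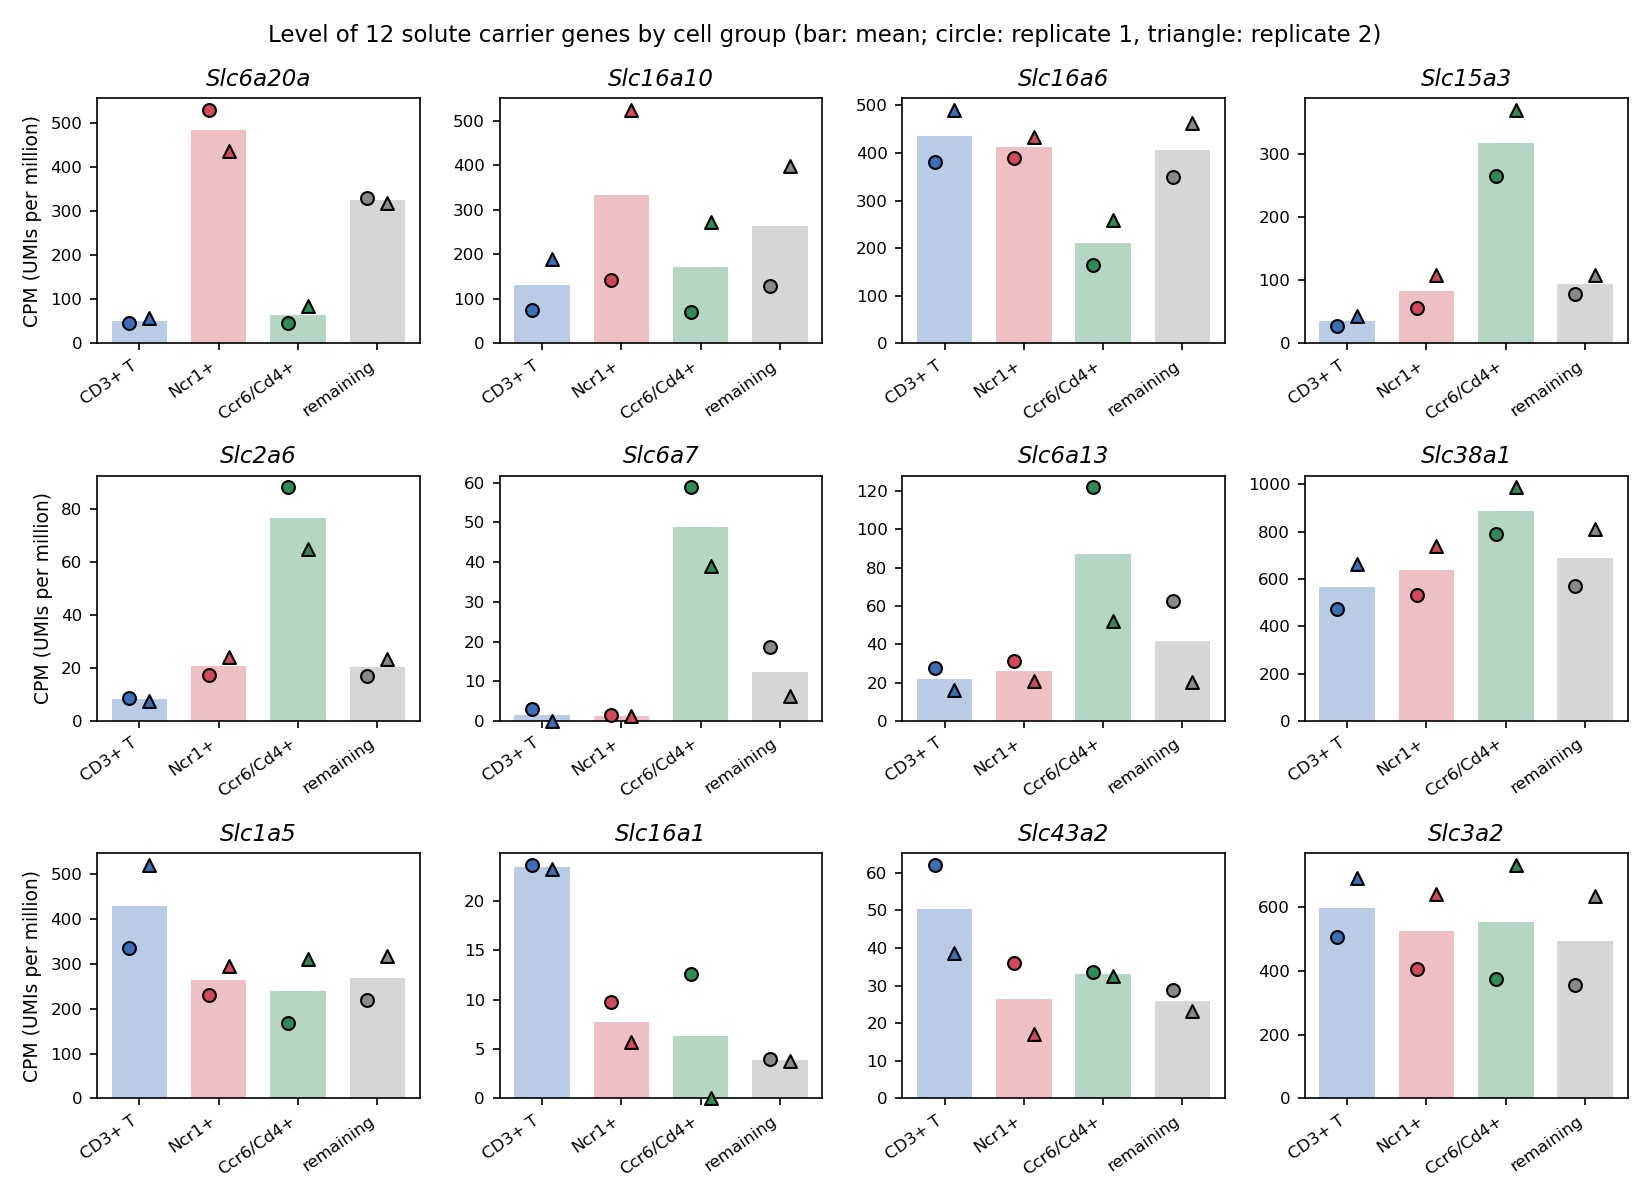
Level (CPM, vertical axis) of 12 members in T, Ncr1+, Ccr6/Cd4+ and remaining cells, with bars at the mean of 2 replicates, circles for replicate 1 and triangles for replicate 2. Slc6a20a peaks in Ncr1+ cells (531 and 438), Slc15a3 in Ccr6/Cd4+ cells (265 and 370.3) and Slc1a5 in T cells (335 and 522).

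Carriers of monocarboxylates, fatty acids and choline were lower in Ccr6/Cd4+ than in T cells for 3 of 8 tested genes, and the median log2 ratio of T over Ccr6/Cd4+ cells was 1.04, against 0.10 over all genes. Of all genes, 5.46% were higher in T than in Ccr6/Cd4+ cells, and DESeq2 called 1 of the 8. Slc16a6, a carrier of ketone bodies and taurine, was the most abundant of them. It stood at 164 and 259.8 CPM in Ccr6/Cd4+, 390.1 and 434 in Ncr1+, 382 and 491 in T and 350.3 and 463 in remaining cells. Both Ccr6/Cd4+ sums lay below all 6 others. The log2 ratio was 1.20 ± 0.16 (edgeR adjusted p = 1.39e-05) for T over Ccr6/Cd4+ and 1.09 ± 0.17 (edgeR adjusted p = 1.40e-04) for Ncr1+ over Ccr6/Cd4+ cells, and T and Ncr1+ cells differed by 0.11 ± 0.11 (edgeR adjusted p = 0.653). Slc16a6 overlaps Amz2 on the opposite strand by 1959 bases. Amz2 stood at 85 to 117 CPM in the 8 sums and was not called. Slc44a2, a choline transporter-like protein, was likewise lower there, with 92.5 and 97.4 CPM in Ccr6/Cd4+ and 172 and 143 in T cells, 0.87 ± 0.23 (edgeR adjusted p = 0.0163). Its T over Ccr6/Cd4+ call was lost with cells thinned to 1000 UMIs, 0.88 (edgeR adjusted p = 0.0810), and with DESeq2, 0.82 (DESeq2 adjusted p = 0.0542).

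Slc16a1, the proton-coupled lactate and pyruvate carrier MCT1, was higher in T cells. Levels were 23.6 and 23.2 CPM in T, 9.72 and 5.74 in Ncr1+, 12.6 and 0 in Ccr6/Cd4+ and 4.01 and 3.81 in remaining cells. T cells of both replicates exceeded every other sum. The log2 ratio was 1.58 ± 0.39 (edgeR adjusted p = 0.00771) over Ncr1+ and 2.57 ± 0.35 (edgeR adjusted p = 7.95e-06) over remaining cells, the latter 5.94-fold. The T over Ncr1+ call was lost with DESeq2, 1.63 (DESeq2 adjusted p = 0.0896), and with cells thinned to 1000 UMIs, 1.52 (edgeR adjusted p = 0.0956). The 0 in Ccr6/Cd4+ cells of replicate 2 allows up to 19.5 CPM, and T over Ccr6/Cd4+ cells was not called at 1.74 ± 0.75 (edgeR adjusted p = 0.164). Without cells holding other cell types' markers, Ccr6/Cd4+ cells had 0 and 0 Slc16a1 UMIs, and T cells were called higher (edgeR adjusted p = 0.00746). It was also called with that group drawn by Cd4 alone. Slc16a3, the lactate exporter MCT4, had 40 UMIs in all and was not tested. The fatty acid carrier Slc27a6 had 60 and 37 UMIs in T cells and 1 and 0 in Ccr6/Cd4+ cells. That is a pooled ratio of 8.02 with an exact 95% counting interval of 1.41 to 320, and a fitted T over Ccr6/Cd4+ log2 ratio of 3.10 ± 0.95 (edgeR adjusted p = 0.0383). This call was lost under 6 alternatives, DESeq2 among them, 3.05 (DESeq2 adjusted p = 0.206).

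Slc15a3 and Slc2a6, both carriers of the lysosomal membrane, were both highest in Ccr6/Cd4+ cells and lowest in T cells. Slc15a3, a proton-coupled carrier of histidine and small peptides at chr19:10839727-10859362 on the plus strand, stood at 265 and 370.3 CPM in Ccr6/Cd4+, 78.5 and 109 in remaining, 56.1 and 109 in Ncr1+ and 27.8 and 43 in T cells. Ccr6/Cd4+ cells lay above all other sums, T cells below all others, and Ncr1+ and remaining cells overlapped. T cells lay 8.27-fold below Ccr6/Cd4+ cells, a log2 ratio of -3.05 ± 0.21 (edgeR adjusted p = 3.54e-10). Ncr1+ over Ccr6/Cd4+ cells gave -1.91 ± 0.20 (edgeR adjusted p = 1.25e-06) and T over Ncr1+ cells -1.14 ± 0.18 (edgeR adjusted p = 1.02e-04). A Slc15a3 UMI was found in 25% and 35.4% of Ccr6/Cd4+, 10.7% and 16.2% of Ncr1+ and 4.70% and 6.18% of T cells, and after thinning in 15.1% and 23%, 6.25% and 9.79% and 1.62% and 2.91%. Its overlapping neighbour Tmem132a had 3 UMIs in all.

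Slc2a6, the glucose transporter family member GLUT6 at chr2:27021363-27027998 on the minus strand, stood at 88.3 and 65 CPM in Ccr6/Cd4+, 17.2 and 23.4 in remaining, 17.2 and 24.1 in Ncr1+ and 8.77 and 7.57 in T cells. Ccr6/Cd4+ cells were again above and T cells below every other sum. T over Ccr6/Cd4+ cells gave a log2 ratio of -3.14 ± 0.42 (edgeR adjusted p = 8.69e-06), Ncr1+ over Ccr6/Cd4+ cells -1.90 ± 0.39 (edgeR adjusted p = 0.00338) and T over Ncr1+ cells -1.24 ± 0.35 (edgeR adjusted p = 0.0213). The value for Ncr1+ over Ccr6/Cd4+ cells was -1.52 (edgeR adjusted p = 0.0798) with cells thinned to 1000 UMIs, and T over Ncr1+ cells was -0.77 (edgeR adjusted p = 0.341) with the stricter filter of at least 500 genes and at most 10% mitochondrial UMIs. No other tested sugar carrier of 9 was called in any comparison. Slc29a1, the equilibrative nucleoside carrier, was lower in T than in remaining cells at -0.60 ± 0.20 (edgeR adjusted p = 0.0464), a call that 7 alternatives lost. Slc23a2, the sodium-dependent vitamin C carrier, named after its values were seen, stood at 70.9 and 95.1 CPM in T, 129 and 121 in Ncr1+ and 115 and 154 in remaining cells. T cells were lower than Ncr1+ cells at -0.59 ± 0.15 (edgeR adjusted p = 0.0117) and than remaining cells at -0.68 ± 0.13 (edgeR adjusted p = 8.50e-04).

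Of 31 mitochondrial carriers tested, 1 was higher and 2 were lower in T than in Ncr1+ cells, 9.68% against 11.6% of all genes. In T against remaining cells 2 were higher and 2 lower, 12.9% against 14%. Both shares are near those of all genes. In T against Ccr6/Cd4+ cells 1 was higher, 3.23% against 10% of all genes. None was called between Ncr1+ and Ccr6/Cd4+ cells by edgeR or by DESeq2, where 4.63% of all genes were called, and 1 had an unadjusted p below 0.05. Slc25a3, the phosphate carrier and the most abundant member, stood at 612 and 751 CPM in T, 583 and 768 in Ncr1+, 597 and 831 in Ccr6/Cd4+ and 647 and 821 in remaining cells. T over Ncr1+ cells gave 0.06 ± 0.10 (edgeR adjusted p = 0.801) with a 95% interval of -0.13 to 0.25. The 2 abundant ADP/ATP carriers were each called higher in T cells, but in no comparison both. Slc25a4 was called only over Ncr1+ cells, and Slc25a5 only over Ccr6/Cd4+ and remaining cells. Slc25a4 stood at 69.8 and 45.4 CPM in T and 38.9 and 27.6 in Ncr1+ cells, a log2 ratio of 0.83 ± 0.20 (edgeR adjusted p = 0.00593), which the stricter cell filter brought to 0.62 (edgeR adjusted p = 0.0936). Slc25a5 stood at 357 and 380.3 in T, 273 and 305 in Ccr6/Cd4+ and 265 and 309 in remaining cells, 0.47 ± 0.15 (edgeR adjusted p = 0.0447) over the former and 0.39 ± 0.10 (edgeR adjusted p = 0.0118) over the latter. With DESeq2, T over Ccr6/Cd4+ cells gave 0.42 (DESeq2 adjusted p = 0.121).

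Slc25a33, which brings pyrimidine nucleotides into mitochondria, was called lower in T than in Ncr1+ and remaining cells. The citrate carrier Slc25a1 was called lower in T than in Ncr1+ cells only. Slc25a33 stood at 8.0 and 8.04 CPM in T, 16.4 and 29.9 in Ncr1+ and 18.2 and 23.2 in remaining cells, and T cells overlapped neither. It was not called between T and Ccr6/Cd4+ cells. Without cells holding other cell types' markers, it stood at 7.27 and 7.22 in T and 5.20 and 13.2 in Ccr6/Cd4+ cells, -0.19 (edgeR adjusted p = 0.941). T over Ncr1+ cells gave a log2 ratio of -1.41 ± 0.34 (edgeR adjusted p = 0.00600), or -1.26 (edgeR adjusted p = 0.0511) with the stricter cell filter, and T over remaining cells -1.31 ± 0.29 (edgeR adjusted p = 0.00240). Slc25a1 stood at 37.7 and 47.8 in T and 63.5 and 68.9 in Ncr1+ cells, -0.60 ± 0.19 (edgeR adjusted p = 0.0364), and lost its call under 6 alternatives, from no filter on low counts to DESeq2, -0.61 (DESeq2 adjusted p = 0.152). Slc25a28, the iron importer mitoferrin 2, was higher in T than in remaining cells, 20.2 and 32.2 against 13.5 and 14.4 CPM, 0.92 ± 0.26 (edgeR adjusted p = 0.0173). That call was lost with DESeq2, 0.91 (DESeq2 adjusted p = 0.250), and without CD3-negative cells holding a T cell receptor UMI, 0.83 (edgeR adjusted p = 0.245). Slc25a24, a calcium-regulated carrier of ATP-magnesium and phosphate that is named after its values were seen, was lower at -0.63 ± 0.20 (edgeR adjusted p = 0.0309).

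Of 24 metal ion carriers, all tested, 1 was called in each comparison, 4.17% against 11.6%, 10%, 4.63% and 14% of all genes. DESeq2 called 0, 1, 0 and 0. Slc41a3, a magnesium carrier, was called lower in T and in Ncr1+ than in Ccr6/Cd4+ cells, but its level there was 189 and 19.5 CPM in replicates 1 and 2, from 45 and 3 UMIs. Ncr1+ cells stood at 35.1 and 24.1, T cells at 26.7 and 15.1 and remaining cells at 56.6 and 20.7. Only replicate 1 of Ccr6/Cd4+ cells was high. The fit gave Ncr1+ over Ccr6/Cd4+ cells -1.87 ± 0.38 (edgeR adjusted p = 0.00299), while replicate 1 alone gave -2.35 and replicate 2 alone 0.42, the opposite direction. For T over Ccr6/Cd4+ cells the fit gave -2.30 ± 0.37 (edgeR adjusted p = 1.26e-04) and the replicates -2.71 and -0.16, and T over remaining cells gave -0.84 ± 0.25 (edgeR adjusted p = 0.0254). With DESeq2, Ncr1+ over Ccr6/Cd4+ cells gave -1.53 (DESeq2 adjusted p = 0.164) and T over remaining cells -0.74 (DESeq2 adjusted p = 0.673). Slc39a13, a zinc carrier of the secretory pathway, had 30 and 9 UMIs in T and 1 and 1 in Ncr1+ cells. The pooled ratio was 9.09 with an exact 95% counting interval of 2.35 to 77.7, and the fit gave a log2 ratio of 3.13 ± 0.83 (edgeR adjusted p = 0.0131). DESeq2 did not call it, 3.11 (DESeq2 adjusted p = 0.144). Without cells holding other cell types' markers the T cell UMIs were 21 and 9 and the gene was no longer tested, and its neighbour Psmc3, overlapping by 4579 bases on the opposite strand, was not called. The zinc importer Slc39a1 (62.1 and 42.1 CPM in T cells), the zinc exporter Slc30a1 (5.72 and 12.8) and the iron and manganese importer Slc11a2 (39.6 and 33.1) were not called in any comparison.

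By family number, 15 tested genes were classed with the carriers of protons, sodium, chloride, bicarbonate and calcium. The class takes in Slc9a3r1, Slc9a3r2 and Slc4a1ap, which encode no transporter. Of the 15, 3 were lower in T than in Ccr6/Cd4+ cells, 20% against 4.57% of all genes. None was called between T and Ncr1+ cells, where 11.6% of all genes were called. There 5 had an unadjusted p below 0.05 and DESeq2 called none. Slc12a2, the sodium-potassium-chloride cotransporter NKCC1, stood at 33.6 and 32.5 CPM in Ccr6/Cd4+, 2.99 and 5.74 in Ncr1+ and 7.62 and 10.9 in T cells, without overlap between Ccr6/Cd4+ cells and the others. These rest on 8 and 5 UMIs in Ccr6/Cd4+ cells. Ncr1+ over Ccr6/Cd4+ cells gave -2.92 ± 0.65 (edgeR adjusted p = 0.00692) and, with cells thinned to 1000 UMIs, -2.48 (edgeR adjusted p = 0.120). Slc9a2, a sodium-proton exchanger, was lower in T than in Ccr6/Cd4+ cells at -2.39 ± 0.70 (edgeR adjusted p = 0.0292) and than in remaining cells at -1.44 ± 0.42 (edgeR adjusted p = 0.0209). The first call was lost with thinned cells, -2.11 (edgeR adjusted p = 0.255), and the second with DESeq2, -1.57 (DESeq2 adjusted p = 0.146), which called no gene of this class between T and remaining cells. Slc4a7, a sodium-bicarbonate cotransporter named after its values were seen, stood at 118 and 143 CPM in Ccr6/Cd4+ and 66.7 and 74.7 in T cells, -0.75 ± 0.23 (edgeR adjusted p = 0.0424). Without cells holding other cell types' markers the call was lost, -0.57 (edgeR adjusted p = 0.197). The phosphate carrier Slc20a1 was not called, at 118 and 125 CPM in T and 113 and 133 in Ncr1+ cells, 0.04 ± 0.14 (edgeR adjusted p = 0.929). Of the 4 tested phosphate, sulfate and citrate carriers, the 6 nucleotide sugar and acetyl-CoA carriers and the 2 others, edgeR and DESeq2 called none. Over the 4 comparisons, unadjusted p-values below 0.05 were reached 2, 2 and 1 times. Of all genes, edgeR called 11.6% in T over Ncr1+, 10% in T over Ccr6/Cd4+, 4.63% in Ncr1+ over Ccr6/Cd4+ and 14% in T over remaining cells.

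Genes that work with these carriers were counted from lists of known functions. Of 13 tested genes of the ATF4 response, which amino acid shortage induces, 2 were higher in T than in Ncr1+ cells, where 6.06% of all genes were higher, and the same 2 in T than in remaining cells, where 6.51% were. They were the folate enzyme Mthfd2, at 0.80 ± 0.24 (edgeR adjusted p = 0.0317) over Ncr1+ cells, and the mTORC1 inhibitor Ddit4, at 1.95 ± 0.38 (edgeR adjusted p = 8.16e-04). Mthfd2 was also the 1 gene higher in T than in Ccr6/Cd4+ cells, at 2.80 ± 0.65 (edgeR adjusted p = 0.00499). Its levels were 38.1 and 65.7 CPM in T and 12.6 and 0 in Ccr6/Cd4+ cells, so this ratio rests on few UMIs in the latter. DESeq2 called 1 of the 13 in T against Ncr1+, 1 in T against Ccr6/Cd4+ and 0 in T against remaining cells. None was lower, and between Ncr1+ and Ccr6/Cd4+ cells none was called by edgeR or DESeq2, with 4 at an unadjusted p below 0.05. Of 20 tested genes of mTORC1 amino acid sensing, none was called in any comparison by edgeR or DESeq2. At an unadjusted p below 0.05 were 0, 2, 2 and 0. Of all genes, edgeR called 11.6% in T over Ncr1+, 10% in T over Ccr6/Cd4+, 4.63% in Ncr1+ over Ccr6/Cd4+ and 14% in T over remaining cells. Among 10 tested partners and carriers under other symbols, Emb, the chaperone of Slc16 carriers, and the mitochondrial carrier Ucp2 were both lower in Ccr6/Cd4+ cells. They were 20% of the list for T over Ccr6/Cd4+ and for Ncr1+ over Ccr6/Cd4+ cells, where 5.46% and 2.35% of all genes were higher. Ucp2 stood at 643 and 637 CPM in Ccr6/Cd4+ and 1337 and 1036 in Ncr1+ cells, 0.98 ± 0.12 (edgeR adjusted p = 4.52e-06) for Ncr1+ over Ccr6/Cd4+ cells. Of 8 tested iron and zinc handling genes, edgeR called 12.5%, 25%, 0% and 25% in the same order, against 11.6%, 10%, 4.63% and 14% of all genes. DESeq2 called 1 in each comparison. The ferritin heavy chain Fth1 was higher in T than in Ncr1+ cells at 0.41 ± 0.09 (edgeR adjusted p = 0.00220). The ferritin light chain Ftl1 was lower in T than in Ccr6/Cd4+ cells at -0.48 ± 0.12 (edgeR adjusted p = 0.00857), and the metallothionein Mt2 was higher at 2.97 ± 0.80 (edgeR adjusted p = 0.0164). Mt2 stood at 54.9 and 11.8 CPM in T cells. In Ccr6/Cd4+ cells its level was that of 1 UMI in each replicate, so the size of its ratio is uncertain.

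Replicates differed for some members in the same direction in all groups. Over all kept cells, 52 members had at least 400 UMIs, and of these 4 were over 2-fold higher and 2 over 2-fold lower in replicate 2. Slc16a10 stood at 109.5 CPM in replicate 1 and 347 in replicate 2, 3.17-fold apart, the arginine carrier Slc7a1 at 83.6 and 206 and the light chain gene Slc7a6 at 22.8 and 55.9. The fourth was Slc25a51, the mitochondrial NAD carrier, with 67 and 137. Slc7a1 was higher in replicate 2 in each group, with 86.1 and 213 in T, 94.9 and 189 in Ncr1+, 75.7 and 208 in Ccr6/Cd4+ and 76.3 and 205 in remaining cells. The lower members were Slc41a3 and Slc6a13. The median log2 ratio of replicate 2 over replicate 1 across the 52 was 0.00. With 1 library per replicate these differences have no test, and library and sample cannot be told apart.

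**Figure D4:**
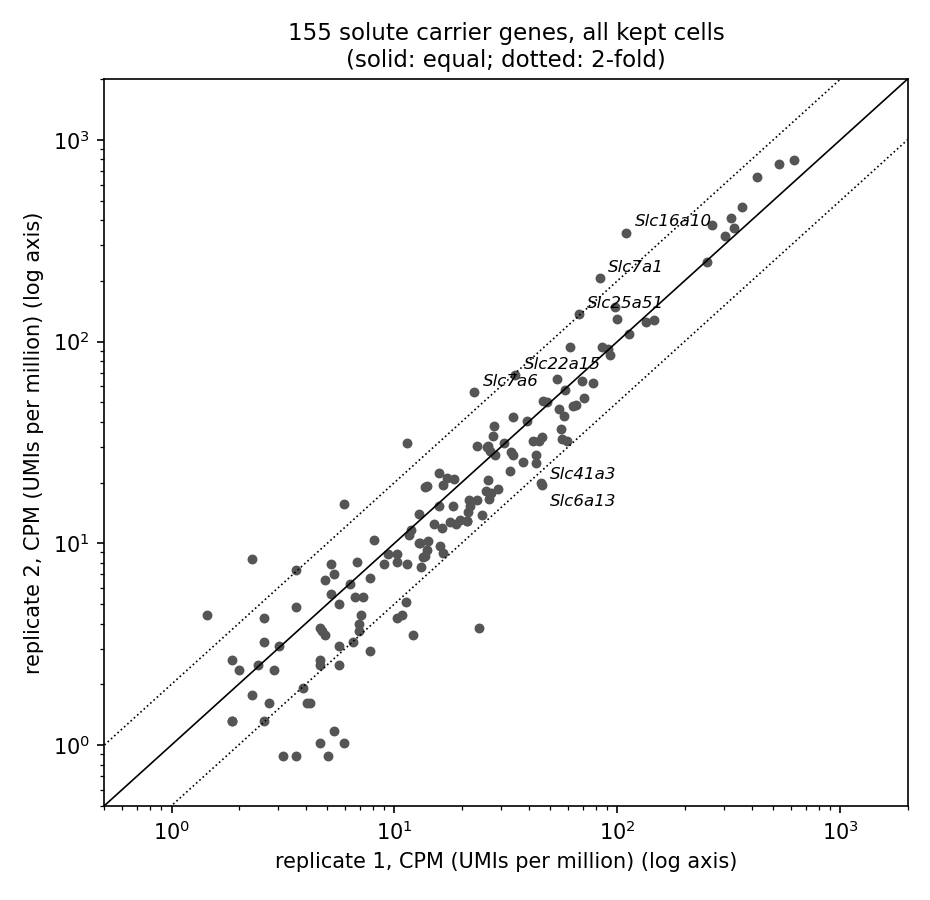
Each point is 1 of the 155 genes, with its level over all kept cells of replicate 1 on the horizontal and of replicate 2 on the vertical axis (CPM, log axes), a solid line for equal levels and dotted lines for a 2-fold difference. Members with at least 400 UMIs and near or past 2-fold are named, with Slc16a10 at 109.5 and 347 the farthest above the line among them.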

How the data were processed

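The files hold UMI counts per cell and gene, not normalized, deposited as 1 table per sample with the sample tag of each cell. Per the file headers they came from the BD WTA Multiplex Rhapsody Analysis Pipeline 1.8 with GRCm38 and GENCODE M19. Which aligner settings and strand were used is not given in the sources used here. Cells of each sample's own tag were kept, so tag multiplets and undetermined cells were left out, and no doublet caller was run. Counts were summed by cell group and replicate (8 sums) and tested with edgeR 4.0.16 in R 4.3.3 (TMM, filterByExpr, quasi-likelihood F test, Benjamini-Hochberg at 0.05 over 9637 genes, with the 6 genes that define groups left out). The design was cell group plus replicate as a block, because the 4 groups of a replicate come from 1 library. SEs were derived from the log2 ratio and F, and 95% intervals are 1.96 SE to each side. Single-replicate ratios carry no test. The exact binomial intervals for low counts and the limits for a count of 0 cover counting error only. The procedure was run on simulated counts in which no gene differed between replicates. That run cannot show how well calls hold where replicates differ, as some members did here. Motif shares come from RefSeq promoters, and positions from GENCODE M21. Alternatives were DESeq2 1.42.0, RLE scaling, no filter, no block, other cell filters (200 genes with 40%, or 500 genes with 10% mitochondrial UMIs), cells thinned to 1000 UMIs, other group rules and each replicate left out. Genes named were up to 12 called members per comparison with the largest ratios of the same sign in both replicates, the 12 with the most UMIs, and carriers with known roles in lymphocytes. The members and gene lists were chosen with earlier results of these data known. Of the called members, 1 is not reported here.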

Additional observations from a re-analysis of the deposited data

How the results depend on the processing

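Counts of members called higher or lower moved most without the replicate block. In that edgeR fit, T over Ncr1+ cells gave 0 higher and 1 lower (6 and 7 with the block), T over Ccr6/Cd4+ cells 0 and 2 (6 and 9), Ncr1+ over Ccr6/Cd4+ cells 1 and 0 (4 and 7) and T over remaining cells 0 and 1 (8 and 15). At an unadjusted p below 0.05 it had 4 and 5, 11 and 10, 8 and 5, and 2 and 10 members, and DESeq2 with the block called 2 and 5, 3 and 9, 4 and 6, and 4 and 8. Leaving out CD3-negative cells with T cell receptor UMIs, which left 94 members tested, gave 2 and 3 for T over Ncr1+ cells, 5 lower for T over Ccr6/Cd4+ cells, 2 lower for Ncr1+ over Ccr6/Cd4+ cells and 5 higher for T over remaining cells. The stricter cell filter left 3 lower for T over Ncr1+ cells, and cells thinned to 1000 UMIs, with 105 members tested, left 4 lower for Ncr1+ over Ccr6/Cd4+ cells. Other counts stayed within 1.5 times. Of 1980 values of named genes under alternatives, 1782 were counted as unchanged, 130 lost their call, 18 gained one and 49 moved in fits with no test. Unchanged values include uncalled ratios that switched sign. They also include single-replicate ratios, with no call, that lay within the SD of the 2 replicate ratios from the main fit. A reversal was counted only where a ratio was called. The reversed value was Slc41a3 for Ncr1+ over Ccr6/Cd4+ cells, 0.42 without replicate 1, -2.35 without replicate 2 and -1.87 in the fit to both. Lost calls came mostly from the fit without the block (51), DESeq2 (18) and the removal of T cell receptor-bearing cells (18). Without 1 replicate, no residual degrees of freedom remained, so ratios carry no test. Without cells holding markers of other cell types, 7 members were higher in T than in Ncr1+ cells, 4 of them among the 6 of the full set. Ccr6/Cd4+ sums of 237874 and 153949 UMIs limit what can be seen there: 22 and 43 of the 155 members were at 0. Causes were not tested.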
